A study of Sorghum bicolor with 18 samples.

Results

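Genes for calcium sensors, kinases and pumps were followed in the first axillary bud of sorghum (Sorghum bicolor, cultivar 100M) after the coleoptile and first leaf had been peeled away to expose it. A gene was taken as a member when the Arabidopsis-derived title given for it in the deposited table contained calmodulin, calcium-dependent protein kinase, calcineurin, calcium-binding, Ca2+-binding, calcium ATPase, EF-hand, EF hand, touch or CBL-interacting. That gave 222 of the 34211 genes in the table. The word touch matched 0 titles. In all, 178 members had enough reads to be tested, and the other 44 had 0 to 88 reads over all libraries, 12 of them 0.

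Calcium ions act as a second messenger in plant cells: a stimulus opens channels, the ion enters the cytosol for a short time, and pumps and exchangers remove it again. The rise is read by proteins with EF-hand motifs, helix-loop-helix pockets that bind the ion. Calmodulins and calmodulin-like proteins bind calcium and then dock onto other proteins, calcineurin B-like sensors (CBL) act through CBL-interacting kinases (CIPK), and calcium-dependent protein kinases (CDPK) carry sensor and kinase in 1 protein. Wounding, touch and cold are well known triggers of this signalling in plants.

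The tested groups were leaf-removed buds, collected at 1, 3 and 6 h, and intact buds collected at the same 3 times. Plants of all 6 groups were 7 days past sowing when treatment began and were of the same cultivar. Each group had 3 libraries, each from a pool of 15 buds, and the 3 were those of best RNA quality among 4 pools harvested. The replicates therefore measure the spread between pools. In bulk samples of this kind, fewer cells of a type and less RNA per cell cannot be told apart. The 18 libraries held 21.4 to 45.8 M exon reads (M, mega), of which members took 0.632% to 1.13%. In 5 libraries (of leaf-removed buds replicate d at 1 h, b at 3 h and d at 6 h, of intact buds c at 1 h and d at 6 h) values deviated alike from their own groups, along a component that held 49.9% of the variance within groups. Their intron share of reads was 4.65% to 7.23%, and that of the other 13 was 3.12% to 4.82%, and leaf-removed buds at 1 h averaged 3.86%, against 5.33% in intact buds.

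Levels are given as CPM (counts scaled to library size, on the TMM scale of edgeR), in replicate order, and differences as log2 fold changes of leaf-removed relative to intact buds ± standard error, 3 libraries against 3. A gene was called higher or lower when the Benjamini-Hochberg adjusted p of the edgeR quasi-likelihood test, over all 21852 genes tested, was below 0.05. All directions are relative to the TMM scale. With library totals in its place, the median of all tested genes shifted to -0.25 at 1 h, -0.12 at 3 h and -0.21 at 6 h, against -0.01, 0.00 and -0.03.

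The comparison at 1 h asks how these genes stood in the first hour after exposure. Calcium genes as a group were higher: they took 1.12% ± 0.0057 of exon reads in leaf-removed buds at 1 h, against 0.738% ± 0.047 in intact buds (SD over libraries, n = 3 each). At 3 h they took 0.721% ± 0.043 in leaf-removed and 0.739% ± 0.020 in intact buds, and at 6 h 0.676% ± 0.055 and 0.762% ± 0.073. Only at 1 h did the 3 leaf-removed libraries lie apart from the 3 intact ones. Of the 178 tested members, 79 (44.4%) were higher at 1 h, where 24.8% of all tested genes were higher, and 24 (13.5%) were lower, where 24.1% of all tested genes were lower. The median member stood at 0.52, against -0.01 for all tested genes. With library totals as scaling, 62 were higher and 36 lower, where 19.0% and 33.2% of all tested genes were. The 24 lower calls were 15 without replicate c of intact buds at 1 h (20.9% of all tested genes), and without the 5 deviating libraries 85 members were higher and 30 lower, where 27.6% and 26.4% of all tested genes were.

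**Figure D1:**
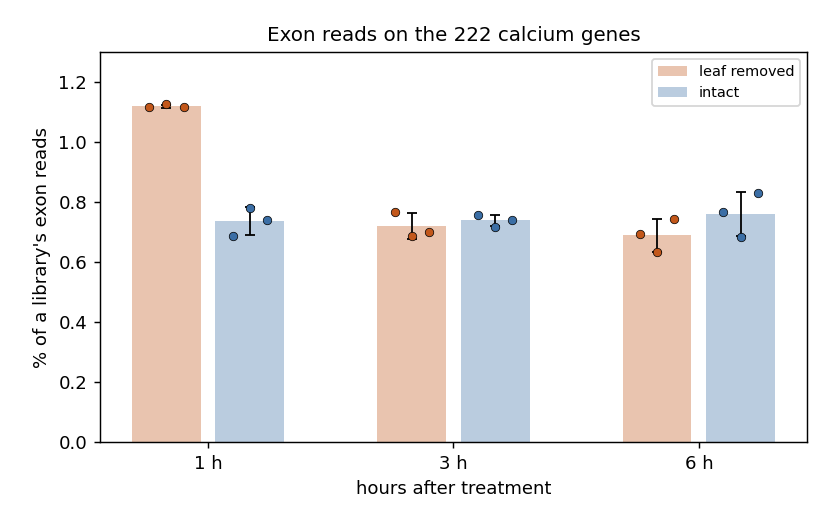
Share of each library's exon reads that fell on the 222 members, in % (y axis), at 1, 3 and 6 h (x axis). Points are libraries, bars are means and error bars are SD, n = 3. Leaf-removed buds at 1 h averaged 1.12%, against 0.738% in intact buds, while the groups lay close together at 3 and 6 h.

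At 3 and 6 h the members' calls no longer leaned to one side as at 1 h. Of the 178, 35 were higher at 3 h (19.7%, with 17.8% among all tested genes) and 25 lower (14.0%, with 16.2% among all tested genes). At 6 h 23 were higher (12.9%, with 18% among all tested genes) and 31 lower (17.4%, with 15.9% among all tested genes). The change of the effect between times was tested directly, as the log2 fold change at 6 h minus that at 1 h. It was negative for 65 members (36.5%, with 19.5% among all tested genes) and positive for 11 (6.18%, with 18.6% among all tested genes), with a median of -0.64. Between 1 h and 3 h it was already negative for 55 (13.2% among all tested genes) and positive for 7 (13.4% among all tested genes). The 35 higher calls at 3 h were 22 without replicate c of intact buds at 3 h (13.9% of all tested genes), and the 25 lower calls 14 without replicate a of intact buds at 3 h (10.4% of all tested genes). Without the 5 deviating libraries 44 were higher and 47 lower at 3 h, with 24.1% and 23% among all tested genes, and 35 and 37 at 6 h, with 21.6% and 20.5%. With library totals 25 were higher and 31 lower at 3 h, with 13.9% and 20.3% among all tested genes, and 16 and 46 at 6 h, with 11.9% and 24.1%.

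Over the 3 times, 33 members (18.5%) were called higher at 1 h alone, a pattern of 10.2% of all tested genes. Calls of higher at 1 and 3 h but not at 6 h were made for 15 (8.43%, with 3.96% among all tested genes), and at all 3 times for 12 (6.74%, with 6.69%). A further 14 (7.87%, with 2.91%) were higher at 1 h and lower at 6 h, and 4 (2.25%, with 4.81%) were lower at 1 h and higher at 6 h. No call was made at any time for 53 members (29.8%, with 33.3%).

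**Figure D2:**
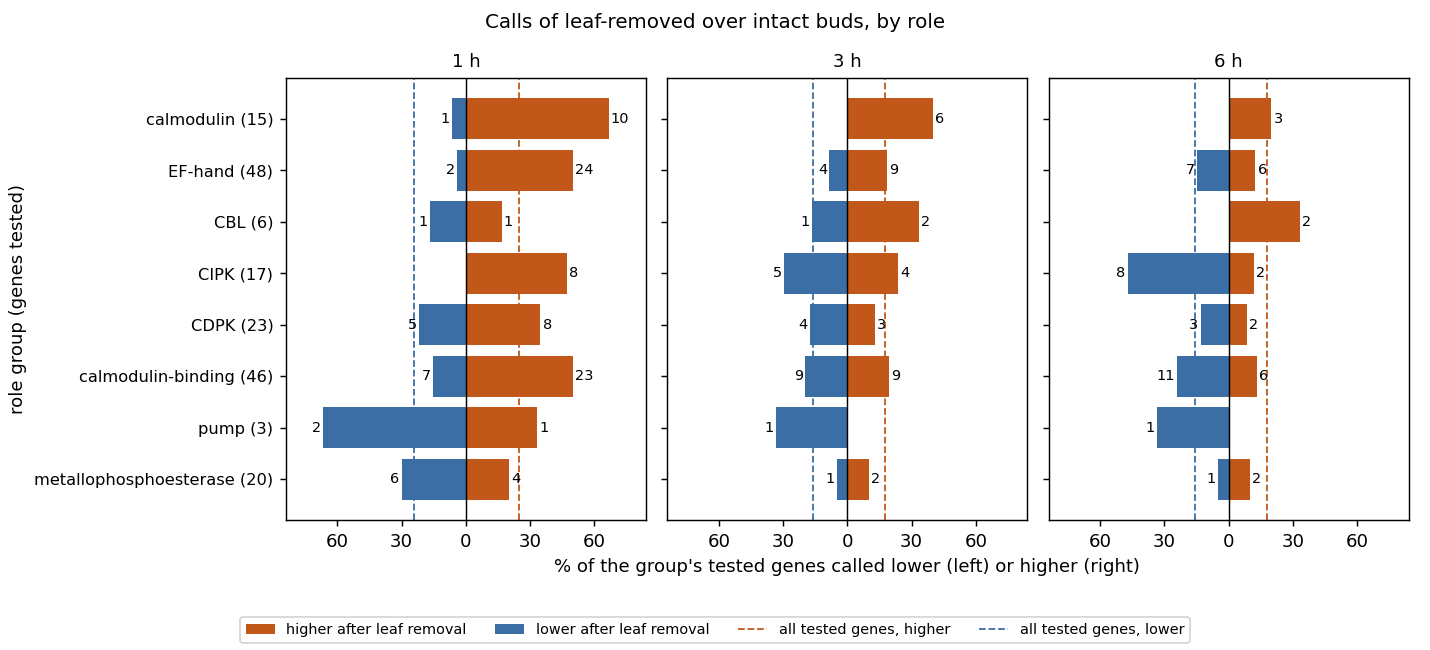
Share of the tested genes of each role group called higher (right, orange) or lower (left, blue) in leaf-removed buds, in % (x axis), at 1, 3 and 6 h, with the number of genes called beside each bar. Dashed lines mark the shares among all tested genes. At 1 h the orange bars of all groups but CBL and metallophosphoesterases pass the dashed line, and at 6 h the blue CIPK bar, with 8 of 17 genes, is longer than the orange one, with 2.

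Calmodulins and calmodulin-like genes, the soluble sensors, had the highest share called higher of any role group at 1 h. Of 15 tested, 10 (66.7%) were higher and 1 (6.67%) lower at 1 h, with 24.8% and 24.1% among all tested genes. The calmodulin median was 1.37. At 3 h 6 (40%) were higher and 0 lower, with 17.8% and 16.2% among all tested genes. At 6 h the counts were 3 (20%) and 0, with 18% and 15.9%. The gene titled calmodulin like 23 (CML23, Sobic.003G082600) had 305, 347 and 166 CPM in leaf-removed buds at 1 h, against 1.44, 2.01 and 3.54 CPM in intact buds. The groups lay far apart, at 6.87 ± 0.65, or 117-fold (adjusted p = 4.3e-07). At 3 h it still had 5.43, 14.9 and 32.0 CPM in leaf-removed buds, against 3.15, 5.74 and 3.22 CPM in intact buds, and the ranges overlapped (2.11 ± 0.55, adjusted p = 0.0071). That call was lost without replicate d of leaf-removed buds at 3 h (adjusted p = 0.062). At 6 h, with 1.15 ± 0.52, it did not pass (adjusted p = 0.1), and the effect had dropped by 5.71 on the log2 scale between 1 and 6 h (adjusted p = 3.5e-05).

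Among the 6 genes titled calmodulin 5 (CAM5), 5 of them tested, were those with the highest levels of any member per exon length. Over all libraries Sobic.003G125650 averaged 432 RPKM (reads per kilobase of exon, scaled to library size), Sobic.001G390300 373, Sobic.009G180000 256 and Sobic.002G424350 119 RPKM. The only other member above 100 RPKM was the kinase CIPK3 (Sobic.001G390200, 102 RPKM), and the median member had 3.73 RPKM. Sobic.002G424350 had 730.2, 800.2 and 604 CPM in leaf-removed buds at 1 h, against 157, 117 and 173 CPM in intact buds. It rose by 2.25 ± 0.16 (adjusted p = 2.6e-08) and remained higher, at 1.04 ± 0.16 at 3 h and 0.92 ± 0.16 at 6 h, with no overlap between the groups at any of these times. Sobic.001G390300, chosen after its values were seen, rose by 1.19 ± 0.17 at 1 h (adjusted p = 3.6e-05). The gene with the highest RPKM, Sobic.003G125650, had 0.72 ± 0.19 (adjusted p = 0.0055), a call lost without replicate c of leaf-removed buds at 1 h (adjusted p = 0.076). Sobic.009G180000, likewise chosen after its values were seen, had 0.39 ± 0.17 and did not pass (adjusted p = 0.06).

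Calmodulin 1 (Sobic.001G094400), a low-level gene, had 18.1, 18.6 and 14.7 CPM in leaf-removed buds at 1 h, against 1.38, 1.87 and 2.39 CPM in intact buds, at 3.18 ± 0.23 (adjusted p = 2.7e-08). Its groups stood apart at 3 h (1.81 ± 0.23) and 6 h (1.78 ± 0.23) too. The 3 genes titled calmodulin like 42 rose at 1 h and had no call at 3 or 6 h. They were chosen after their values were seen, and reached 3.27 ± 0.69 (Sobic.001G383800), 3.03 ± 0.42 (Sobic.001G383700) and 0.92 ± 0.23 (Sobic.002G419700). The single gene called lower at 1 h, the calmodulin-related Sobic.006G160100, had 33.1 to 33.2 CPM in leaf-removed buds, against 39.1 to 42.9 CPM in intact buds (-0.30 ± 0.11, adjusted p = 0.035). Its call was lost without replicate c of intact buds at 1 h (adjusted p = 0.11).

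EF-hand proteins outside the calmodulin titles numbered 48 tested genes, of which 24 (50%) were higher and 2 (4.17%) lower at 1 h. Among all tested genes 24.8% and 24.1% were. At 3 h 9 (18.8%) were higher and 4 (8.33%) lower, with 17.8% and 16.2% among all tested genes. At 6 h the counts were 6 (12.5%) and 7 (14.6%), with 18% and 15.9%. The EF-hand median at 1 h was 1.12. Sobic.001G048900 had 14.3, 22.6 and 23.5 CPM in leaf-removed buds at 1 h, against 1.03, 0.826 and 0.939 CPM in intact buds, at 4.43 ± 0.37 (adjusted p = 1.3e-07). Sobic.001G435800 had 266, 277 and 183 CPM in leaf-removed buds at 1 h, against 23.7, 18.9 and 28.6 CPM in intact buds, at 3.35 ± 0.28 (adjusted p = 1.2e-07). Neither gene's groups overlapped at 1, 3 or 6 h, and the effect on Sobic.001G435800 was still 2.39 ± 0.27 at 6 h. Only 82.0% of that gene's reads were placed uniquely, so its count is uncertain. Sobic.005G028700 rose by 1.77 ± 0.13 (adjusted p = 3.9e-08), with 77.4 to 99.1 CPM in leaf-removed buds at 1 h, against 25.1 to 27.1 CPM in intact buds. Its 3 h value was 0.37 ± 0.13, a call lost without replicate b of intact buds at 3 h (adjusted p = 0.07), replicate c of intact buds at 3 h (adjusted p = 0.14), replicate c of leaf-removed buds at 3 h (adjusted p = 0.12) or replicate d of leaf-removed buds at 3 h (adjusted p = 0.15).

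The highest folds of the group belonged to genes near silent in intact buds, which were chosen after their values were seen. Sobic.007G213800 had 53.7, 53.4 and 18.4 CPM in leaf-removed buds at 1 h, against 0.224, 0.496 and 0.787 CPM in intact buds, at 6.36 ± 0.80 (adjusted p = 8.3e-06). Ca2+-binding protein 1 (CP1, Sobic.001G393500) had 57.7, 61.7 and 27.8 CPM in leaf-removed buds at 1 h, against 1.47, 0.441 and 2.30 CPM in intact buds, at 5.13 ± 0.64 at 1 h, 3.68 at 3 h and 2.55 at 6 h, called at each. In both genes replicate d of leaf-removed buds at 1 h had the lowest level of its group, as it did in CML23. Sobic.003G430400 had 260 reads in the 3 leaf-removed libraries at 1 h and 4 in the intact ones (6.34 ± 0.99).

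A pair of EF-hand genes whose title also names a sodium/calcium exchanger both rose at 1 h. Sobic.003G021500, the EF-hand gene with the highest RPKM (81.6), had 529, 519.6 and 263 CPM in leaf-removed buds at 1 h, against 128, 81.9 and 157 CPM in intact buds. It stood at 1.84 ± 0.27 at 1 h (adjusted p = 3.3e-05) and at -0.53 at 6 h, which did not pass (adjusted p = 0.13). Sobic.004G108100, chosen after its values were seen, rose by 1.34 ± 0.15. Of the 2 EF-hand genes called lower, Sobic.003G194800 had -0.54 ± 0.14 (adjusted p = 0.0053) and Sobic.010G188800 -0.66 ± 0.22 (adjusted p = 0.023), with overlapping groups in Sobic.010G188800. The call on Sobic.010G188800 was lost without replicate c of intact buds at 1 h (adjusted p = 0.16) or replicate b of leaf-removed buds at 1 h (adjusted p = 0.062).

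In the EF-hand group 5 genes were higher at 1 h and lower at 6 h. MSS3 (Sobic.002G377000), a calmodulin-like sensor in Arabidopsis, averaged 1.77 ± 0.791 CPM in leaf-removed buds at 1 h, against 0.583 ± 0.0744 CPM in intact buds (SD, n = 3; 1.59 ± 0.43, adjusted p = 0.0062). At 6 h it averaged 0.36 ± 0.133 CPM in leaf-removed buds, against 1.22 ± 0.313 CPM in intact buds (SD, n = 3; -1.76 ± 0.45, adjusted p = 0.007). The groups did not overlap at either time, though its level was low throughout. Sobic.002G376900 had 1.67 ± 0.65 at 1 h and -2.23 ± 0.75 at 6 h (adjusted p = 0.031), with 72.8% of its reads placed uniquely. Sobic.006G138300 had 1.10 ± 0.14 at 1 h and -0.64 ± 0.14 at 6 h (adjusted p = 0.003), Sobic.003G425500 0.93 ± 0.29 and -0.80 ± 0.29 (adjusted p = 0.042), and Sobic.001G428000 0.47 ± 0.11 and -0.80 ± 0.11 (adjusted p = 6.3e-05). The 1 h call on Sobic.002G376900 was lost with 10 of the 18 libraries left out 1 at a time (adjusted p = 0.051 to 0.15) and its 6 h call without replicate c of intact buds at 6 h (adjusted p = 0.081), replicate d of intact buds at 6 h (adjusted p = 0.065), replicate a of leaf-removed buds at 6 h (adjusted p = 0.11) or replicate d of leaf-removed buds at 6 h (adjusted p = 0.082). The 1 h call on Sobic.003G425500 was lost without replicate c of intact buds at 1 h (adjusted p = 0.061), replicate b of leaf-removed buds at 1 h (adjusted p = 0.063) or replicate c of leaf-removed buds at 1 h (adjusted p = 0.059), and its 6 h call with 13 of the 18 libraries left out 1 at a time (adjusted p = 0.052 to 0.14). With library totals the 1 h calls on Sobic.001G428000 (adjusted p = 0.12) and Sobic.002G376900 (adjusted p = 0.073) were lost, and in unique reads those on Sobic.002G376900 at 1 h (adjusted p = 0.085) and 6 h (adjusted p = 0.059).

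**Figure D3:**
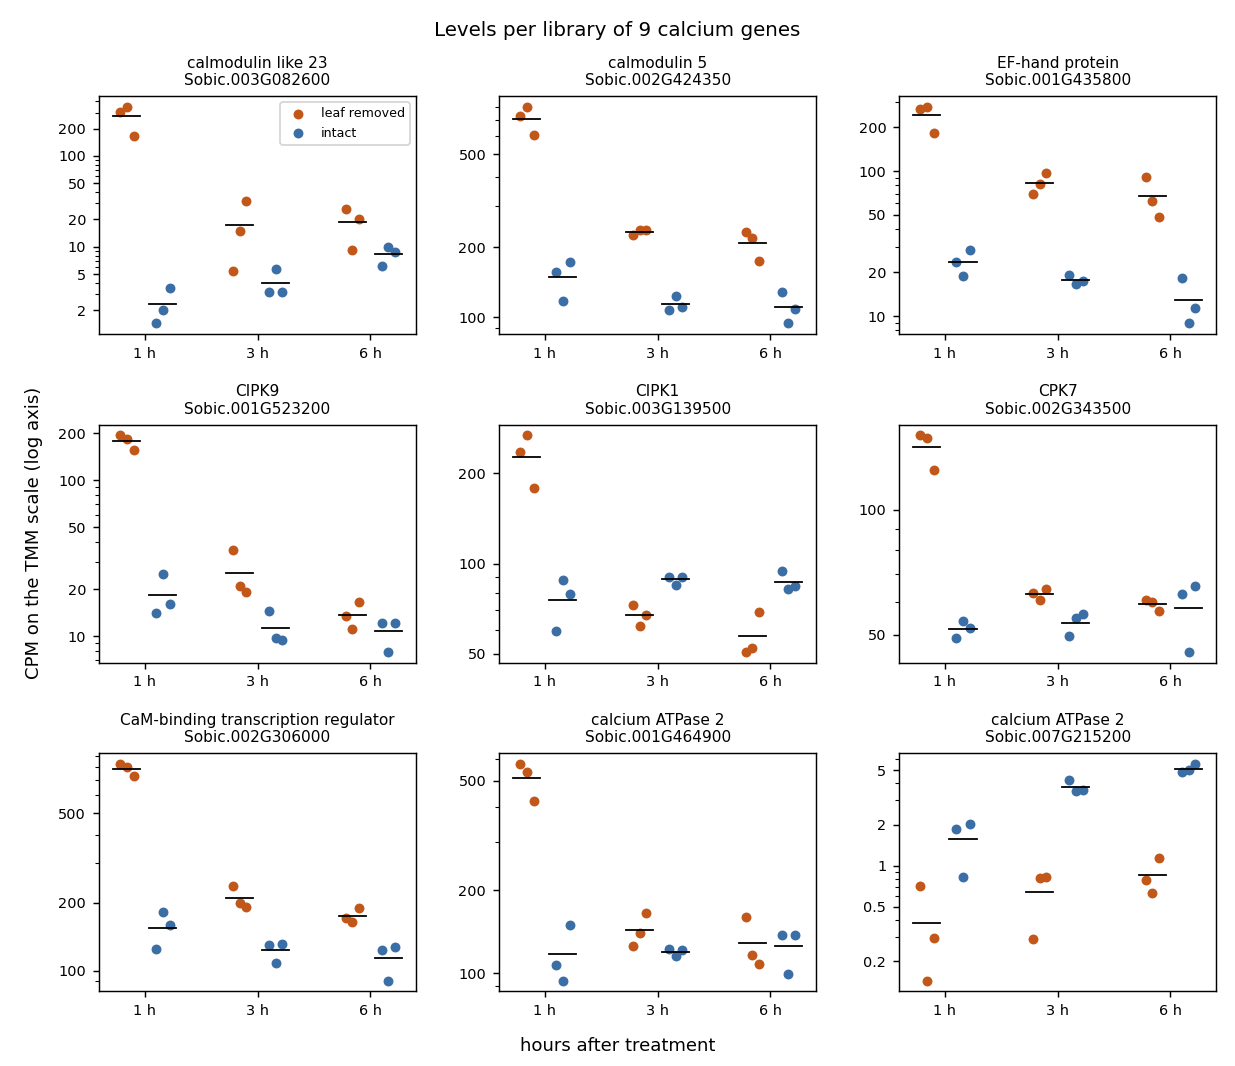
CPM per library on the TMM scale (y axes, log scale, a range for each gene) of 9 members at 1, 3 and 6 h (x axes), with leaf-removed buds in orange and intact buds in blue. Each point is a library and each line a mean, n = 3. In 8 of the 9 genes the orange points at 1 h stand above the blue ones, and in Sobic.007G215200 they stand below at each time.

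CBL sensors, which sit at membranes and recruit CIPK kinases, had few calls: of 6 tested, 1 (16.7%) was higher and 1 (16.7%) lower at 1 h. Among all tested genes 24.8% were higher and 24.1% lower. The CBL median was -0.01 (-0.25 with library totals). The calcineurin B subunit-related gene Sobic.010G261500 had 45.5, 39.6 and 40.8 CPM in leaf-removed buds at 1 h, against 26.1, 29.3 and 31.2 CPM in intact buds (0.54 ± 0.11, adjusted p = 0.00064), and it was higher at 3 h (0.87 ± 0.11) and 6 h (0.65 ± 0.11). With library totals its 1 h call was lost (adjusted p = 0.051), and no CBL gene (0 of 6) was then called higher at 1 h. CBL10 (Sobic.003G275000), a sensor of salt tolerance in Arabidopsis, was called lower at 1 h (-0.40 ± 0.14, adjusted p = 0.026) and higher at 6 h (0.46 ± 0.14, adjusted p = 0.018). The first call was lost without replicate c of intact buds at 1 h (adjusted p = 0.14), the second without replicate c of intact buds at 6 h (adjusted p = 0.055) or replicate d of leaf-removed buds at 6 h (adjusted p = 0.085) and with library totals (adjusted p = 0.19). CBL3 (Sobic.008G152800), the CBL gene with the highest RPKM (37.2), had 0.28 ± 0.29 at 1 h, which did not pass (adjusted p = 0.44). Its 3 h value was 0.85 ± 0.29 (adjusted p = 0.032), a call lost with 4 of the 18 libraries left out 1 at a time (adjusted p = 0.057 to 0.16) and with library totals (adjusted p = 0.084). Genes whose Arabidopsis symbol is CBL4 or SOS3 carry an EF-hand title and stand in the EF-hand group, where the 3 tested had no call at any time.

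CIPK kinases, the partners of CBL sensors, were higher or not called at 1 h, and more of them were lower than higher at 6 h. Of 17 tested, 8 (47.1%) were higher and 0 lower at 1 h, with 24.8% and 24.1% among all tested genes. At 3 h 4 (23.5%) were higher and 5 (29.4%) lower, with 17.8% and 16.2% among all tested genes. At 6 h the counts were 2 (11.8%) and 8 (47.1%), with 18% and 15.9%. The shift between 1 and 6 h was negative for 10 (58.8%) and positive for 0, with 19.5% and 18.6% among all tested genes. The CIPK median was 0.38 at 1 h, -0.14 at 3 h and -0.62 at 6 h. With library totals 7 were higher and 3 lower at 1 h, with 19.0% and 33.2% among all tested genes. At 6 h the counts on that scale were 1 and 9, with 11.9% and 24.1%.

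CIPK9 (Sobic.001G523200) had 193, 184 and 155 CPM in leaf-removed buds at 1 h, against 14.0, 25.0 and 16.0 CPM in intact buds, at 3.27 ± 0.28 (adjusted p = 1.7e-07). CIPK23 (Sobic.002G034700) had 16.5, 21.4 and 11.6 CPM in leaf-removed buds at 1 h, against 1.35, 1.27 and 1.76 CPM in intact buds, at 3.50 ± 0.41 (adjusted p = 3.5e-06). Both act in potassium nutrition in Arabidopsis. CIPK9 was still higher at 3 h (1.17 ± 0.27, adjusted p = 0.0033), and by 6 h CIPK9 stood at 0.35 ± 0.27 and CIPK23 at -0.11 ± 0.38, neither called. CIPK23 at 3 h had 1.18 ± 0.38 (adjusted p = 0.026), a call lost without replicate a of intact buds at 3 h (adjusted p = 0.051), replicate c of intact buds at 3 h (adjusted p = 0.11) or replicate d of leaf-removed buds at 3 h (adjusted p = 0.2). CIPK1 (Sobic.003G139500) had 235, 268 and 178 CPM in leaf-removed buds at 1 h, against 59.4, 87.8 and 79.3 CPM in intact buds, at 1.59 ± 0.17 (adjusted p = 1.1e-06). At 6 h it had 50.7, 52.4 and 69.1 CPM in leaf-removed buds, all below the 94.1, 82.1 and 84.4 CPM of intact buds (-0.60 ± 0.16, adjusted p = 0.0098).

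CIPK18 (Sobic.009G195800) passed the test in opposite directions at 1 and 6 h. It had 7.51, 7.87 and 6.72 CPM in leaf-removed buds at 1 h, against 3.85, 4.30 and 4.57 CPM in intact buds (0.80 ± 0.19, adjusted p = 0.0027), and 3.42, 3.12 and 2.58 CPM in leaf-removed buds at 6 h, against 8.21, 8.23 and 9.92 CPM in intact buds (-1.53 ± 0.20, adjusted p = 2.7e-05). The groups did not overlap at either time, and the shift was -2.32 ± 0.27 (adjusted p = 8.5e-06). CIPK3 (Sobic.001G390200) was higher at 1 h (1.37 ± 0.18), 3 h (1.04 ± 0.18) and 6 h (0.96 ± 0.18), with 415, 538 and 587 CPM in leaf-removed buds at 1 h, against 182, 255 and 158 CPM in intact buds. CIPK4 and CIPK20, chosen after their values were seen, were not called at 1 h and had the lowest log2 fold changes of the CIPK genes at 6 h. CIPK4 (Sobic.001G161200) had 3.17, 2.32 and 0.955 CPM in leaf-removed buds at 6 h, against 20.1, 27.1 and 11.4 CPM in intact buds (-3.17 ± 0.59, adjusted p = 0.0007). CIPK20 (Sobic.003G024400) had 7.48, 6.69 and 4.96 CPM in leaf-removed buds at 6 h, against 30.6, 31.7 and 18.7 CPM in intact buds (-2.07 ± 0.26, adjusted p = 2.3e-05).

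CDPK kinases had calls in both directions, as all tested genes did. Of 23 tested, 8 (34.8%) were higher and 5 (21.7%) lower at 1 h, with 24.8% and 24.1% among all tested genes. The CDPK median was 0.15 (-0.08 with library totals). At 3 h 3 (13.0%) were higher and 4 (17.4%) lower, with 17.8% and 16.2% among all tested genes. At 6 h the counts were 2 (8.70%) and 3 (13.0%), with 18% and 15.9%. CPK7 (Sobic.002G343500) had 151, 148 and 125 CPM in leaf-removed buds at 1 h, against 49.2, 53.9 and 52.0 CPM in intact buds, at 1.45 ± 0.12 (adjusted p = 1.4e-07). Its groups overlapped at 6 h (0.03 ± 0.12), and the shift was -1.42 ± 0.17 (adjusted p = 1.1e-05). Of the 3 genes titled calcium-dependent protein kinase family protein, whose Arabidopsis match is CPK6, a kinase of guard cells, Sobic.001G520900 rose by 1.12 ± 0.17 and Sobic.004G279100 by 0.78 ± 0.12 at 1 h, while Sobic.001G313100 had -0.66 ± 0.21. The fall of Sobic.001G313100 was lost without replicate c of intact buds at 1 h (adjusted p = 0.14). At 6 h Sobic.001G520900 was higher as well (1.11 ± 0.17, adjusted p = 0.00012).

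The CDPK with the highest RPKM, CPK4 (Sobic.005G056600, 60.3 RPKM), had 254, 263 and 255 CPM in leaf-removed buds at 1 h, against 149.6, 168 and 181 CPM in intact buds (0.63 ± 0.10, adjusted p = 9.8e-05). CPK13 (Sobic.003G345000) was lower at 1 h at -0.33 ± 0.09 (adjusted p = 0.0074), with 101 to 111 CPM in leaf-removed buds, against 117 to 144 CPM in intact buds. With the 6 libraries of 1 h alone that call was lost (adjusted p = 0.063). Opposite calls at 1 and 6 h were found for CPK5 and CPK16. CPK5 (Sobic.006G192500), which activates an oxidase of immune signalling in Arabidopsis, had 0.88 ± 0.19 at 1 h (adjusted p = 0.0013) and -0.55 ± 0.19 at 6 h (adjusted p = 0.036). The 6 h call on CPK5 was lost without replicate a of intact buds at 3 h (adjusted p = 0.067), replicate a of intact buds at 6 h (adjusted p = 0.1), replicate d of intact buds at 6 h (adjusted p = 0.27), replicate b of leaf-removed buds at 6 h (adjusted p = 0.14) or replicate d of leaf-removed buds at 6 h (adjusted p = 0.079). CPK16 (Sobic.004G025000) had 0.70 ± 0.19 at 1 h (adjusted p = 0.0065), -0.80 ± 0.19 at 3 h and -1.16 ± 0.19 at 6 h (adjusted p = 0.00029). Its 1 h call was lost without replicate b of intact buds at 1 h (adjusted p = 0.055) or replicate d of intact buds at 1 h (adjusted p = 0.055), and with library totals (adjusted p = 0.067).

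Calmodulin-binding proteins, the docking targets of the sensor, were more often higher than lower at 1 h. Of 46 tested, 23 (50%) were higher and 7 (15.2%) lower at 1 h, with 24.8% and 24.1% among all tested genes. At 3 h 9 (19.6%) were higher and 9 (19.6%) lower, with 17.8% and 16.2% among all tested genes. At 6 h the counts were 6 (13.0%) and 11 (23.9%), with 18% and 15.9%. The shift between 1 and 6 h was negative for 21 (45.7%) and positive for 2 (4.35%), with 19.5% and 18.6% among all tested genes. The calmodulin-binding transcription regulator Sobic.002G306000 took the most reads of any member in leaf-removed buds at 1 h, 6.28% of the reads on members. It had 826, 801 and 732 CPM in leaf-removed buds at 1 h, against 124, 183 and 159 CPM in intact buds, at 2.34 ± 0.16 (adjusted p = 1.3e-08). The groups stayed apart at 3 h (0.77 ± 0.15) and 6 h (0.62 ± 0.15). A gene titled calmodulin-binding transcription activator with CG-1 and ankyrin domains (Sobic.003G407200), a family of DNA-binding factors that take part in cold and wound responses in Arabidopsis, rose by 1.93 ± 0.19 (adjusted p = 7.7e-07). CAMTA1 (Sobic.001G351700), titled ethylene induced calmodulin binding protein, had 241, 254 and 251 CPM in leaf-removed buds at 1 h, against 69.0, 100.4 and 86.8 CPM in intact buds. It rose by 1.54 ± 0.16 (adjusted p = 8.6e-07) and was also higher at 3 h (1.02 ± 0.15).

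In this group 5 genes were higher at 1 h and lower at 6 h. The receptor-like kinase CRCK3 (Sobic.006G138500) had 104, 84.5 and 84.6 CPM in leaf-removed buds at 1 h, against 20.7, 30.6 and 30.1 CPM in intact buds (1.75 ± 0.20), and 16.4, 16.2 and 21.7 CPM in leaf-removed buds at 6 h, against 28.8, 26.5 and 42.2 CPM in intact buds (-0.85 ± 0.20, adjusted p = 0.0038). Its relative CRCK2 (Sobic.001G029900) had 1.24 ± 0.29 at 1 h and -1.07 ± 0.31 at 6 h (adjusted p = 0.014). The 6 h call on CRCK2 was lost without replicate c of intact buds at 6 h (adjusted p = 0.063) or replicate a of leaf-removed buds at 6 h (adjusted p = 0.053). Of 13 tested genes titled simply Calmodulin-binding protein, a set chosen after its values were seen, 7 were higher and 3 lower at 1 h, and 0 and 6 at 6 h. Among all tested genes 24.8% were higher and 24.1% lower at 1 h, and 18% and 15.9% at 6 h. Sobic.006G092400 of that set had 99.7, 99.0 and 105 CPM in leaf-removed buds at 1 h, against 46.3, 52.2 and 52.8 CPM in intact buds (1.00 ± 0.11), and -0.62 ± 0.11 at 6 h (adjusted p = 0.00047). Sobic.008G126200 had 1.19 ± 0.16 at 1 h and -0.82 ± 0.16 at 6 h (adjusted p = 0.00078). Sobic.004G187000 had 0.61 ± 0.22 at 1 h (adjusted p = 0.03) and -1.56 ± 0.24 at 6 h (adjusted p = 0.00012), and its 1 h call was lost with 9 of the 18 libraries left out 1 at a time (adjusted p = 0.056 to 0.17) and with library totals (adjusted p = 0.19).

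DRL1 (Sobic.002G009200), titled calmodulin binding and purine nucleotide binding, averaged 16.7 ± 1.18 CPM in leaf-removed buds at 1 h, against 25.3 ± 1.68 CPM in intact buds (SD, n = 3; -0.60 ± 0.11, adjusted p = 0.00022), and had 31.9, 32.8 and 34.3 CPM in leaf-removed buds at 6 h, against 24.5, 21.4 and 22.8 CPM in intact buds (0.53 ± 0.11, adjusted p = 0.0012). Sobic.002G319300, the gene of this group with the smallest p among those lower at 1 h after DRL1, had -1.03 ± 0.21 at 1 h, -1.96 ± 0.21 at 3 h and -0.77 ± 0.20 at 6 h. The last of these calls was lost without replicate d of intact buds at 6 h (adjusted p = 0.073).

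Calmodulin-binding genes with 3 or fewer exon reads in intact buds at 1 h were chosen after their values were seen. CAMBP25 (Sobic.002G425000) had 188 exon reads in the 3 leaf-removed libraries at 1 h and 0 in the 3 intact ones. That is at least 73.0-fold higher when the intact group is set at a floor of 3 reads over the group. Its intron reads outnumbered its exon reads, with 368 in leaf-removed and 17 in intact buds at 1 h. The gene was thus not without reads in intact buds, and its exon count is uncertain. A gene titled Calmodulin-binding protein (Sobic.007G107600) had 367 reads in leaf-removed and 3 in intact buds at 1 h, a ratio of 143 (95% exact interval of 48.4 to 694, counting error only).

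Only 3 members are calcium pumps, and all 3 carry the title calcium ATPase 2 (ACA2), a calmodulin-activated pump of the endoplasmic reticulum in Arabidopsis. They did not move together. Sobic.001G464900 had 575, 536 and 423 CPM in leaf-removed buds at 1 h, against 107, 94.2 and 150.0 CPM in intact buds, at 2.12 ± 0.20 (adjusted p = 3.7e-07). It was back at 0.26 ± 0.19 at 3 h and 0.04 ± 0.19 at 6 h, neither called, with a shift between 1 and 6 h of -2.09 ± 0.27 (adjusted p = 2.2e-05). Sobic.007G215200 had 0.707, 0.145 and 0.295 CPM in leaf-removed buds at 1 h, against 1.86, 0.826 and 2.03 CPM in intact buds (-2.00 ± 0.50, adjusted p = 0.0034), and 0.791, 0.628 and 1.15 CPM in leaf-removed buds at 6 h, against 4.85, 4.98 and 5.54 CPM in intact buds (-2.60 ± 0.47, adjusted p = 0.00054). Its groups did not overlap at 1, 3 or 6 h. The third pump, Sobic.001G167100, fell at 1 h (-0.85 ± 0.26, adjusted p = 0.012), but only 68.1% of its reads were placed uniquely. Per length the first pump averaged 42.1 RPKM over all libraries, against 0.538 RPKM for Sobic.007G215200 and 1.10 RPKM for Sobic.001G167100.

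Members titled calcineurin-like metallophosphoesterase, 20 genes, matched the rule through the word calcineurin but form a broad family of metal-dependent phosphatases and are not calcium sensors. At 1 h 4 (20%) were higher and 6 (30%) lower, with 24.8% and 24.1% among all tested genes. The shift to 6 h was positive for 3 (15%) and negative for 1 (5%), with 18.6% and 19.5% among all tested genes. Without these phosphoesterases, 75 of 158 members (47.5%) were higher and 18 (11.4%) lower at 1 h. Sobic.002G132300 rose by 0.87 ± 0.13 at 1 h (adjusted p = 4.3e-05), and Sobic.006G066900 fell by 1.62 on the log2 scale (adjusted p = 3.1e-05), with 1.06, 1.06 and 1.66 CPM in leaf-removed buds, against 4.26, 4.38 and 3.09 CPM in intact buds. Sobic.002G004600 had -0.87 ± 0.20 at 1 h. Sobic.006G067400 was lower at 1 h (-0.52 ± 0.17, adjusted p = 0.019) and higher at 6 h (1.23 ± 0.17, adjusted p = 5.1e-05). Its 1 h call was lost without replicate c of intact buds at 1 h (adjusted p = 0.059). The same order was seen in Sobic.006G067500 (-0.66 ± 0.25 at 1 h, adjusted p = 0.041, and 0.77 ± 0.25 at 6 h, adjusted p = 0.024), calls lost with 6 of the 18 libraries left out 1 at a time (adjusted p = 0.051 to 0.18) at 1 h and 4 of the 18 libraries left out 1 at a time (adjusted p = 0.051 to 0.079) at 6 h. Sobic.005G080200 rose by 0.91 ± 0.24 at 1 h, a call lost without replicate c of leaf-removed buds at 1 h (adjusted p = 0.06). TOPP8 (Sobic.003G158400), a gene whose symbol is that of a protein phosphatase in Arabidopsis, had 0.61 ± 0.20 (adjusted p = 0.019), lost with 5 of the 18 libraries left out 1 at a time (adjusted p = 0.052 to 0.12). With library totals the 1 h call on TOPP8 (adjusted p = 0.16) and the 6 h call on Sobic.006G067500 (adjusted p = 0.097) were lost. VPS29 (Sobic.004G117800), a retromer subunit and the member of this family with the highest RPKM (44.3), had 0.20 ± 0.12 and no call.

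**Figure D4:**
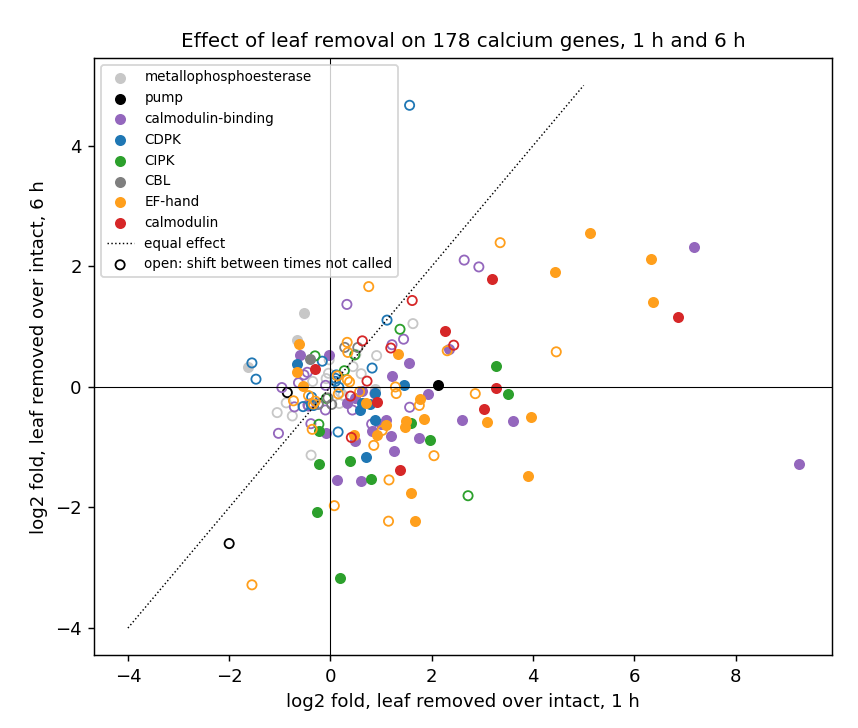
Log2 fold change of leaf-removed relative to intact buds at 6 h (y axis) against that at 1 h (x axis) for the 178 tested members, coloured by role, with filled points where the change between the times was called. Most filled points lie to the right of and below the dotted line of equal effect, where the effect was lower at 6 h than at 1 h.

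Intact buds were also compared with each other over time. Of the 178 members, 18 (10.1%) were called across the 3 times in intact buds, with 9.72% among all tested genes. The 18 were 11 without replicate c of intact buds at 1 h (5.55% of all tested genes) and 36 without the 5 deviating libraries (19.9%). The 18 included 4 of 17 CIPK genes and 7 of 46 calmodulin-binding genes, but 0 of 15 calmodulins. CIPK18 averaged 7.36 ± 0.588 CPM at 1 h and 3.04 ± 0.425 CPM at 6 h in leaf-removed buds, against 4.24 ± 0.367 and 8.79 ± 0.977 CPM in intact buds (mean ± SD, n = 3). CIPK4 averaged 3.57 ± 2.25 CPM at 1 h and 2.15 ± 1.12 CPM at 6 h in leaf-removed buds, against 3.12 ± 1.24 and 19.5 ± 7.84 CPM in intact buds.

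Reads in introns, which can come from RNA not yet spliced, were tested in the same way as a separate readout. Where they came from was not tested. At 1 h 116 members had enough of them, and 29 were higher (25.0%, with 12.7% among all genes tested on introns) and 4 lower (3.45%, with 11.4% among all genes tested on introns). Of the 29, 28 were also higher in exon reads, and of the 51 members higher in exon reads that could be tested on introns, 28 were called. No member was called in opposite directions by the 2 kinds of read at 1 h.

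CIPK9 had 182 intron reads in the 3 leaf-removed libraries at 1 h and 13 in the 3 intact ones, at 4.74 ± 0.57 (adjusted p = 2.8e-06), against 3.27 ± 0.28 in exon reads. CIPK3 (Sobic.001G390200) had 1847 and 440 intron reads, at 3.10 ± 0.26 (adjusted p = 2.6e-08), beside 1.37 ± 0.18 in exon reads. CAM5 (Sobic.002G424350) had 38551 intron reads in leaf-removed and 15759 in intact buds at 1 h, beside 51528 and 14870 exon reads. In intact buds its intron reads outnumbered its exon reads. Its log2 fold changes were 2.29 ± 0.25 in intron and 2.25 ± 0.16 in exon reads. The transcription regulator Sobic.002G306000 had 347 and 384 intron reads, at 0.92 ± 0.25 (adjusted p = 0.0098), beside 2.34 ± 0.16 in exon reads. Intron folds were scaled to intron read totals and exon folds to exon read totals, each with its own TMM factors. Intact buds at 1 h had the higher intron share of reads (5.33%, against 3.86% in leaf-removed buds). The 2 folds of a gene are therefore not on a common scale. The differences between the 2 kinds of read were not tested.

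**Figure D5:**
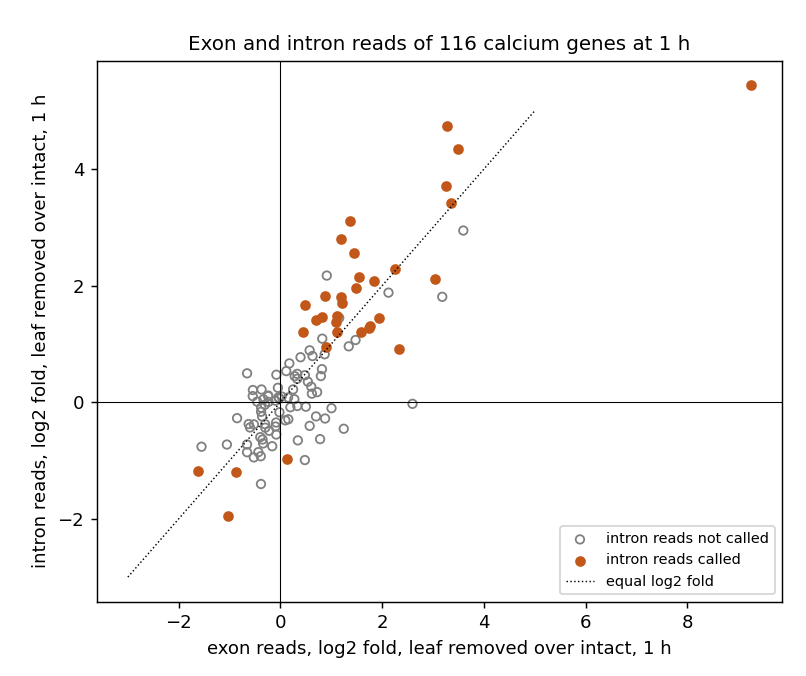
Log2 fold change of leaf-removed relative to intact buds at 1 h in intron reads (y axis) against exon reads (x axis) for the 116 members tested on both, with filled points where the intron reads were called. The dotted line marks equal values, though each axis is scaled to its own kind of read. Of the 33 filled points, 29 lie above 0 on the intron axis.

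Genes around the sensors, for entry and storage of the ion and for output, were counted from a list of titles: 98 of 118 were tested, and 28 were higher and 17 lower at 1 h. At 3 h 12 (12.2%) were higher and 22 (22.4%) lower, with 17.8% and 16.2% among all tested genes. At 6 h the counts were 9 (9.18%) and 19 (19.4%), with 18% and 15.9%. The 1 h counts make 28.6% higher and 17.3% lower, with 24.8% and 24.1% among all tested genes. By the rule for named genes, 3 are given. ERD4 (Sobic.002G034500), of the family of OSCA calcium channels in Arabidopsis, had 1038, 957 and 723 CPM in leaf-removed buds at 1 h, against 84.4, 129 and 111 CPM in intact buds (3.07 ± 0.20, adjusted p = 7.4e-09). IQD6 (Sobic.003G032200), a calmodulin-binding scaffold of the IQ-domain family, had 6.09, 6.18 and 5.76 CPM in leaf-removed buds at 1 h, against 40.1, 32.2 and 40.9 CPM in intact buds (-2.65 ± 0.17, adjusted p = 9.5e-09). MSL10 (Sobic.010G077300), a channel opened by membrane tension, had -2.08 ± 0.17 (adjusted p = 8.7e-08).

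The subfamilies of that list, chosen after their values were seen, gave these counts, at 1 h unless another time is stated. Among all tested genes 24.8% were higher and 24.1% lower at 1 h, and 18% and 15.9% at 6 h. Of 8 annexins, calcium-dependent membrane binders, 5 were higher and 0 lower at 1 h. Of 13 genes with cyclic nucleotide titles, most of them channels, 5 were higher and 0 lower at 1 h, and 0 and 6 at 6 h. Of 12 cation and calcium exchangers, which load the ion into the vacuole, 4 were higher and 0 lower at 1 h. Of 27 IQ-domain genes 3 were higher and 11 lower. Of 18 glutamate receptor genes 4 were higher and 3 lower, and those higher were titled GLR3.3 or GLR3.4, for example Sobic.006G193200 at 2.35 ± 0.26. RBOHD (Sobic.005G139700), an oxidase activated by calcium in Arabidopsis, had 24.8, 34.3 and 14.6 CPM in leaf-removed buds at 1 h, against 2.69, 3.30 and 4.88 CPM in intact buds (2.76 ± 0.42, adjusted p = 4.8e-05), while RBOHB (Sobic.008G118700) had -3.29 ± 0.62 (adjusted p = 0.00036). Calreticulins and calnexins hold calcium in the endoplasmic reticulum: of 5 calreticulin and calnexin genes 3 were higher at 1 h and 4 at 6 h. Calreticulin 1a (Sobic.001G025500) had 56.3, 64.3 and 61.1 CPM in leaf-removed buds at 6 h, against 12.9, 12.3 and 10.9 CPM in intact buds (2.34 ± 0.16, adjusted p = 6.0e-08). At 1 h it had 37.6, 41.8 and 40.5 CPM in leaf-removed buds, against 33.3, 48.9 and 41.8 CPM in intact buds. From 1 to 6 h its level was thus lower in intact and higher in leaf-removed buds.

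Markers of neighbouring tissue were followed beside these results. Their calls can be set against all tested genes, of which 24.8% passed as higher and 24.1% as lower at 1 h. For 3 h those shares were 17.8% higher with 16.2% lower, and for 6 h 18% higher with 15.9% lower. Of 62 tested leaf genes (84 listed, 14 at 0 reads) 6 were higher and 3 lower at 1 h, and their summed RPKM ranged from 2536 to 3506 in leaf-removed buds, against 1877 to 4125 in intact buds. Of 11 tested vascular genes (32 listed, 7 at 0 reads) 5 were higher and 1 lower at 1 h, with summed RPKM of 20.6 to 31.6 in leaf-removed buds, against 26.8 to 30.7 in intact buds. At 3 h 5 leaf genes were higher and 8 lower, with sums of 2965 to 4837 in leaf-removed buds, against 4621 to 7609 in intact buds. At 6 h 9 leaf genes were higher and 3 lower, while their sums were 2715 to 4598 in leaf-removed buds, against 4156 to 6322 in intact buds, so the count and the sum went in opposite directions. Of the vascular genes 3 were higher and 0 lower at 3 h, with sums of 30.1 to 35.4 in leaf-removed buds, against 17.3 to 18.8 in intact buds. At 6 h 2 were higher and 0 lower, with sums of 27.0 to 33.0 in leaf-removed buds, against 20.0 to 30.4 in intact buds. Leaf genes were thus called less often than all tested genes, in both directions and at each time. Vascular genes at 1 h were more often higher and less often lower than all tested genes. The part of tissue makeup in the results was not tested.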

How the data were processed

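RNA of 18 pools of buds was sequenced with TruSeq libraries and 125 bp Illumina HiSeq reads, per the labels' protocols. The authors deposited a table that holds, per the file headers, a count of total exon reads, unique exon reads and intron reads for each gene and library, and an RPKM for each. For aligner, counting rule, strand setting and genome build the entry is: not given in the sources used here. Exon counts were tested with the quasi-likelihood test of edgeR 4.0.16 (limma 3.58.1, R 4.3.3): TMM factors, default expression filter, 6 groups in 1 fit, 12 residual degrees of freedom, Benjamini-Hochberg over 21852 genes. Standard errors are the log2 fold change divided by the root of the F statistic. RPKM was used for levels between genes only. The fit was tested on simulated data with known fold changes, where it called small changes less often than large ones. Intervals on reads cover counting error only, as PCR copies are counted too.

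Members and lists were chosen with earlier results of these data known. Roles came from title words, and a CAM in brackets was read as calmodulin. Named in each role were the 3 higher and 2 lower genes with the smallest p at 1 h, the smallest p of the shift from 1 to 6 h, the highest mean RPKM, and any with opposite calls at 1 and 6 h, and from the list of entry genes the 3 with the smallest p at 1 h. Other genes are marked as chosen after their values were seen. Alternatives were DESeq2 1.42.0, other scalings and filters, unique or intron reads, 1 library left out, the 6 libraries of a time, 2-fold as minimum and a replicate block; leaving out 5 deviating libraries, the intron share as covariate and leaving out metallophosphoesterases were added after seeing the data. Same-lettered libraries correlated by -0.405 to 0.528 in their deviations, so letters were not used as pairs. None of the identifiers (0) matched the reference names, so positions and sequences were not used here. Tables and figures used Python 3.11.15, numpy 2.4.6, pandas 2.3.3 and matplotlib 3.10.9.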

Additional observations from a re-analysis of the deposited data

Results flagged for a closer look

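By the edgeR quasi-likelihood test of the difference itself, the effect of leaf removal differed between 1 and 6 h for 39 of the 53 members named by the rule, and for the 3 entry genes so named. Of all 178 tested members, the difference was positive for 11 and negative for 65, and among all tested genes for 18.6% and 19.5%. The rule picks genes partly by this difference, so the count of 39 is not comparable with those shares. Values are the log2 fold change at 6 h minus that at 1 h. Among calmodulins it was -5.71 for CML23 (Sobic.003G082600), -1.40 for calmodulin 1 (Sobic.001G094400), -1.34 for CAM5 (Sobic.002G424350) and 0.59 for Sobic.006G160100, and for CBL10 (Sobic.003G275000) it was 0.85. In the EF-hand group it was -3.90 for Sobic.002G376900, -3.35 for Sobic.002G377000, -2.52 for Sobic.001G048900, -2.37 for Sobic.003G021500, -1.96 for Sobic.005G028700, -1.74 for Sobic.006G138300, -1.72 for Sobic.003G425500, -1.27 for Sobic.001G428000, 0.57 for Sobic.003G194800 and 0.90 for Sobic.010G188800. Single libraries decided the calls on Sobic.003G194800 and Sobic.010G188800, which were lost without replicate c of intact buds at 1 h (adjusted p = 0.071) or replicate d of leaf-removed buds at 6 h (adjusted p = 0.093), and without replicate c of intact buds at 1 h (adjusted p = 0.082), replicate a of intact buds at 6 h (adjusted p = 0.051), replicate b of leaf-removed buds at 1 h (adjusted p = 0.053) or replicate d of leaf-removed buds at 6 h (adjusted p = 0.085). Only 72.8% of the reads on Sobic.002G376900 and 87.8% of those on Sobic.006G138300 were placed uniquely. Among CIPK kinases it was -3.61 for CIPK23 (Sobic.002G034700), -2.92 for CIPK9 (Sobic.001G523200), -2.32 for CIPK18 (Sobic.009G195800) and -2.19 for CIPK1 (Sobic.003G139500). Among CDPK kinases it was -1.86 for CPK16 (Sobic.004G025000), -1.43 for CPK5 (Sobic.006G192500), -1.42 for CPK7 (Sobic.002G343500), -1.07 for Sobic.004G279100, -0.90 for CPK4 (Sobic.005G056600) and 1.03 for Sobic.001G313100. The pump Sobic.001G464900 had -2.09. Among calmodulin-binding genes it was -2.60 for CRCK3 (Sobic.006G138500), -2.31 for CRCK2 (Sobic.001G029900), -2.17 for Sobic.004G187000, -2.05 for Sobic.003G407200, -2.00 for Sobic.008G126200, -1.72 for Sobic.002G306000, -1.62 for Sobic.006G092400, -1.14 for CAMTA1 (Sobic.001G351700) and 1.13 for DRL1 (Sobic.002G009200). Among metallophosphoesterases it was 1.96 for Sobic.006G066900, 1.75 for Sobic.006G067400, 1.43 for Sobic.006G067500 and -0.90 for Sobic.002G132300. The entry genes had -3.37 for ERD4 (Sobic.002G034500), 2.26 for IQD6 (Sobic.003G032200) and 1.79 for MSL10 (Sobic.010G077300). Most of these genes were named for their change at 1 h or for this difference, so the values are a description.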

How the results depend on the processing

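Counts of members called, with the share of all tested genes called in brackets, moved as follows. Only the larger moves are listed, and a setting or direction not given here moved the count by a smaller factor. Intron reads, with 116 members tested, gave 29 (12.7%) higher and 4 (11.4%) lower at 1 h, 8 (7.29%) and 6 (5.58%) for 3 h, 5 (5.43%) and 6 (5.26%) for 6 h, shifts from 1 to 6 h of 1 (8.81%) positive and 22 (8.4%) negative, from 1 to 3 h of 1 (5.7%) and 12 (4.84%), and 1 (2.23%) called over time in intact buds. A minimum of 2-fold gave 5 (10.2%) lower at 1 h, 23 (9.29%) higher and 9 (5.97%) lower for 3 h, and 9 (7.37%) and 15 (6.31%) for 6 h. With the replicate block 12 (18.9%) were lower at 1 h, 12 (6.66%) higher and 7 (5.22%) lower for 3 h, 7 (6.48%) and 13 (4.75%) for 6 h, 3 (10.2%) shifts were positive to 6 h, and 3 (6.32%) positive and 28 (6.27%) negative to 3 h. The labels do not say whether a replicate letter links pools, so whether the block fits the design is not known. Only the 6 libraries of 1 h gave 12 (21.1%) lower, and DESeq2 gave 30 (16.3%) called over time in intact buds. Of the settings added after seeing the data, the intron share as covariate gave 39 (24.7%) higher and 47 (24.3%) lower at 6 h, 12 (18.5%) positive shifts to 3 h and 36 (21.3%) called in intact buds, and leaving out the 5 deviating libraries gave 47 (23%) lower at 3 h, 35 (21.6%) higher at 6 h, 19 (21.4%) positive shifts to 6 h and 36 (19.9%) called in intact buds. With 1 library left out, 61 to 81 (19.6% to 25.0%) were higher and 15 to 31 (20.9% to 28.2%) lower at 1 h. For 3 h the counts were 22 to 41 (13.9% to 20.4%) and 14 to 26 (10.4% to 16.1%). For 6 h they were 20 to 33 (14.5% to 20.6%) and 24 to 33 (11.8% to 16.7%). Shifts to 6 h were positive for 8 to 16 (16.4% to 22.4%) and negative for 58 to 68 (14.1% to 19.2%). Shifts to 3 h were positive for 6 to 13 (11.7% to 16.1%) and negative for 38 to 53 (8.87% to 13.1%). Calls in intact buds were 11 to 27, with 1235 of 22263 to 2703 of 22289 among all tested genes. Of 6568 alternative values for named genes, 6074 kept their call or lack of one, 376 lost the call and 102 gained one. A further 16 turned direction, all 16 in intron reads. A turn was counted only where the main or the alternative value was called. Values without a call could change sign and still count among the 6074. None of the 16 turned intron values was itself called (edgeR test, adjusted p = 0.26 to 0.996). Those were 0.10, 0.50, -0.63, 0.05, -0.24, -0.10 and -0.46 at 1 h for Sobic.003G194800, Sobic.010G188800, Sobic.004G279100, Sobic.003G345000, Sobic.004G025000, Sobic.006G092400 and Sobic.001G029900, -0.38, 0.11 and 0.0056 at 3 h for Sobic.005G028700, Sobic.006G092400 and Sobic.008G126200, 0.19, 0.026 and 0.14 at 6 h for Sobic.003G139500, Sobic.006G192500 and Sobic.008G126200, and shifts to 6 h of 1.15, -0.44 and -0.33 for Sobic.001G094400, Sobic.003G194800 and Sobic.010G188800. The cause of these changes was not tested.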
